A study of Mus musculus with 6 samples.

Results

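Iron and heme handling genes were examined in bone marrow-derived dendritic cells (BMDCs) of WT and Nfkb2-/- mice. The group holds 10 genes, chosen by what their products do, out of 21849 genes tested. They are Trf, Tfrc, Slc11a2 and Slc11a1 for iron uptake and transport, Fth1, Ftl1 and Ncoa4 for storage, Slc40a1 and Cp for export and oxidation, and Hmox1 for heme breakdown. All 10 were found by symbol among the 56748 Ensembl IDs of the count files, and all 10 had enough counts to be tested. Bone marrow cells of C57BL/6 WT mice and of mice lacking Nfkb2 globally had been grown for 5 days with GM-CSF (20 ng/mL), a growth factor for myeloid cells, and for a further 4 days with GM-CSF and IL-4 (10 ng/mL). The BMDCs of both genotypes received no stimulus before polyadenylated RNA was sequenced. There were 3 libraries per genotype, with 29863927 to 55623068 counts per library. The study describes the libraries of a genotype as independent biological replicates, without saying whether each came from a separate mouse, and p-values measure the spread between them. Age and sex of the mice behind the libraries are not given in the labels. The knockout is present in every cell that the marrow gave rise to, and a bulk library cannot tell fewer cells of a type from less RNA per cell.

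Iron bound to transferrin, the product of Trf, enters cells through the transferrin receptor, encoded by Tfrc. The divalent metal transporters Slc11a2 and Slc11a1 carry iron out of endosomes and phagosomes into the cytosol, where ferritin, a shell of heavy (Fth1) and light (Ftl1) chains, stores it. Ncoa4 is the receptor that sends ferritin to autophagy for iron release, and Slc40a1 encodes ferroportin, the exporter through which iron leaves the cell. Ceruloplasmin (Cp) oxidizes exported iron, and heme oxygenase 1 (Hmox1) opens the heme ring and frees its iron. Macrophages that clear old red cells are known for high Hmox1 and Slc40a1. When iron is scarce, iron regulatory proteins bind hairpins in certain mRNAs, the iron-responsive elements. A hairpin before the coding sequence then holds back translation, whereas hairpins behind it protect the mRNA from decay.

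These elements are shown because they divide the members that hold them into 2 classes. In 1 class the iron regulatory proteins can set the mRNA level, and in the other they act mainly on translation. The GENCODE M21 transcripts (GRCm38) of the 10 genes were searched, in the sense of the mRNA only, for the letters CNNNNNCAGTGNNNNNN with the 5 letters before CAGTGN pairing with the 5 letters after it, G to T pairs allowed. Of 21901 protein-coding genes, 294 held at least 1 match (1.34%), and 4 of the 10 members did. Fth1, Ftl1 and Slc40a1 each held 1 match in the 5′ UTR and Tfrc held 4 in the 3′ UTR. Slc11a2, for which such an element is known in one group of transcripts, had no match to these letters. Each element is printed 5′ to 3′ over 30 bases, with the loop CAGTGN in capitals.
Fth1 (chr19:9982732-9982761, plus strand): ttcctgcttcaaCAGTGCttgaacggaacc
Ftl1 (chr7:45459778-45459807, minus strand): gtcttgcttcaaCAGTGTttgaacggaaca
Slc40a1 (chr1:45925464-45925493, minus strand): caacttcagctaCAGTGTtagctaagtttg
Tfrc element 1 (chr16:32631219-32631248, plus strand): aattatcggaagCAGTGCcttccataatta
Tfrc element 2 (chr16:32631598-32631627, plus strand): cattatcgggagCAGTGTcttccataatgc
Tfrc element 3 (chr16:32631663-32631692, plus strand): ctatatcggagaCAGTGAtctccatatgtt
Tfrc element 4 (chr16:32631710-32631739, plus strand): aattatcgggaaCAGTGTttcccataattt

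The genotype labels were checked first. Nfkb2 (ENSMUSG00000025225), the targeted gene, had levels of 215, 154 and 355 CPM (counts scaled to library size with TMM) in WT BMDCs, and of 44.8, 32.3 and 32.6 CPM in Nfkb2-/- BMDCs. The difference on the log2 scale was -2.72 (SE 0.33, adjusted p = 0.0307 from edgeR). Dendritic cell markers were present in every library, the 12 of them summing to 6297 to 11568 CPM in WT and 8232 to 9405 CPM in Nfkb2-/- BMDCs. Of these 12, Itgax, which encodes CD11c, passed the test (160, 277 and 123 CPM in WT against 745, 769 and 716 CPM), and Ccr7 did not (log2 fold change -0.97, adjusted p = 0.235 from edgeR). WT replicate 3 stood apart. Of 12 macrophage markers, 11 had their lowest value of all 6 libraries there, and their summed level was 207 CPM against 1115 and 1291 CPM in WT replicates 1 and 2 and 743 to 961 CPM in Nfkb2-/- BMDCs. Its dendritic cell markers summed to the highest value of the 6 libraries, but the single markers differed in direction. Of the 12, 6 had their highest value of all libraries there and 2, Itgax and Cd209a, their lowest. Nfkb2-/- replicate 1 had at least 1 count on 47952 genes, against 27692 to 33841 in the others. Red cell markers, which could bring heme genes with them, summed to 1.65 to 9.13 CPM over 11 genes, and the globin genes Hba-a1, Hba-a2 and Hbb-bs had at most 3 counts in every library. A further globin gene, Hbb-bt, had 0 counts in every WT library and 13, 6 and 19 counts in the Nfkb2-/- libraries, all under 0.4 CPM.

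Compared across genes as CPM per kb of the principal transcript, ferritin led in both genotypes. Fth1 averaged 679 ± 232 CPM per kb (SD, n = 3) in WT and 603 ± 6.59 in Nfkb2-/- BMDCs, and Ftl1 averaged 248 ± 61.9 and 186 ± 55.8. In WT BMDCs, Trf (62.7 ± 35.9), Ncoa4 (41.5 ± 6.71), Hmox1 (32.8 ± 24.2), Tfrc (24.7 ± 18.2), Slc40a1 (12.8 ± 9.58), Slc11a2 (4.04 ± 0.043), Slc11a1 (3.56 ± 2.56) and Cp (0.95 ± 0.70 CPM per kb) followed. The steps from Fth1 to Ftl1 and from Ftl1 to Trf were larger than the spread between WT libraries, and every later pair of neighbours overlapped. In Nfkb2-/- BMDCs the order after ferritin was Tfrc (53.4 ± 14.8), Trf (51.6 ± 6.50), Hmox1 (27.8 ± 3.18), Ncoa4 (23.6 ± 5.24), Slc11a2 (6.38 ± 0.31), Slc40a1 (3.47 ± 0.69), Slc11a1 (2.99 ± 0.92) and Cp (0.93 ± 0.11 CPM per kb). Tfrc thus held rank 6 of the 10 means in WT and rank 3 in Nfkb2-/- BMDCs, and the neighbours Tfrc and Trf, Hmox1 and Ncoa4, and Slc40a1 and Slc11a1 overlapped there while the others did not. With the union of all annotated exons as length, Fth1 and Ftl1 still led and Cp was still last, while the neighbours Ncoa4, Hmox1 and Tfrc as well as Slc11a1 and Slc11a2 changed places in WT, and Slc40a1 and Slc11a1 in Nfkb2-/- BMDCs.

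To ask whether loss of Nfkb2 altered these genes, their mRNA levels were compared between the genotypes. Slc11a2 had a higher level and Ncoa4 a lower level in all 3 Nfkb2-/- libraries than in any WT library, by 1.58-fold and 1.76-fold. Slc40a1 had the largest difference, a 3.69-fold lower fitted level in Nfkb2-/- BMDCs, and Tfrc a 2.16-fold higher one, but both spread widely among the WT libraries. None of the 10 passed the test, for which edgeR's quasi-likelihood fit had to give an adjusted p below 0.05 together with more than 1.2-fold change. The same criteria were met by 1.14% of all genes tested. Before adjustment, edgeR's p was below 0.05 for 3 members, Slc11a2, Ncoa4 and Slc40a1, and for 3730 of the 21849 genes tested. These 3 members were the ones that DESeq2 called, where it called 8.60% of all genes. limma voom called none of the 10, and 2.23% of all genes. Levels did not overlap between the genotypes for 2 of the 10, against 24.7% of all genes, a share near that background. The median log2 fold change of the members was -0.25, with 8 below 0, against 0.076 over all genes tested, of which 9670 of 21849 were below 0. With limma voom the median of the members was -0.023.

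**Figure D1:**
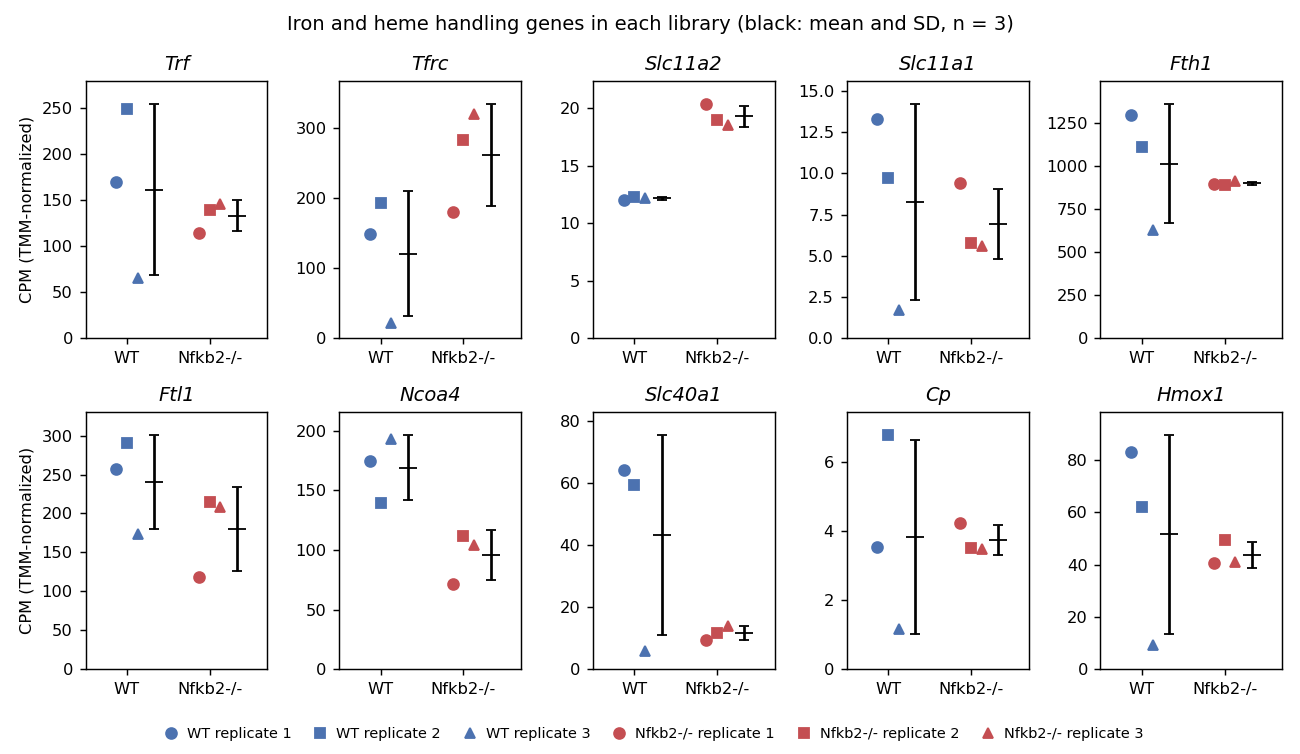
Level of each of the 10 iron and heme genes (CPM, linear axes from 0) in the 3 WT libraries (blue) and the 3 Nfkb2-/- libraries (red), with the replicate number as the marker shape and the mean and SD (n = 3) in black. WT replicate 3 (blue triangle) held the lowest of the 6 values for 7 genes, whereas the genotypes separated without overlap for Slc11a2 and Ncoa4.

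Among the uptake genes, Slc11a2 (ENSMUSG00000023030, chr15:100387898-100425072), which encodes the divalent metal transporter of endosomes, had the tightest values. It measured 12.1, 12.3 and 12.2 CPM in WT and 20.4, 19.0 and 18.5 CPM in Nfkb2-/- BMDCs. The lowest Nfkb2-/- value lay well above the highest WT value, and WT replicate 3 did not stand apart. The log2 fold change was 0.66 (SE 0.14, adjusted p = 0.0792 from edgeR, unadjusted p = 0.0021), and DESeq2 gave an adjusted p of 0.0013. Over the 14 alternatives the log2 fold change ran from 0.58 to 0.76. Relative to the proliferation markers described with Tfrc it was below 0, as it was for every member. Gene-level counts do not separate the Slc11a2 transcripts with and without an iron-responsive element, and the overlapping antisense gene Gm5475 had 7 to 44 counts per library beside 355 to 991 of Slc11a2.

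Tfrc (ENSMUSG00000022797, chr16:32608920-32632794), the transferrin receptor, measured 148, 193 and 21.4 CPM in WT and 180, 283 and 320 CPM in Nfkb2-/- BMDCs. The genotypes overlapped because WT replicate 2 exceeded Nfkb2-/- replicate 1, and WT replicate 3 lay far below all others. The log2 fold change was 1.11 (SE 0.68, adjusted p = 0.458 from edgeR) and was 0.62 without WT replicate 3 (adjusted p = 0.347). Only edgeR without a filter on low counts called Tfrc (adjusted p = 0.0213), a fit that called 3.50% of all genes. Tfrc is known to be high in dividing cells, and 12 of 12 proliferation markers were higher in every Nfkb2-/- library than in any WT library, 2 of them past the test (Mcm3 and Plk1). Their summed level was 214, 512 and 142 CPM in WT and 657, 895 and 989 CPM in Nfkb2-/- BMDCs. As a percent of that sum, a scale chosen after the values were seen, Tfrc measured 69.3, 37.8 and 15.1 in WT and 27.4, 31.7 and 32.3 in Nfkb2-/- BMDCs, and on this scale the genotypes overlapped with no higher mean in Nfkb2-/-. Slc11a2 measured 5.64, 2.41 and 8.62 percent of that sum in WT and 3.10, 2.13 and 1.88 percent in Nfkb2-/- BMDCs, with overlap and a log2 difference of -1.08, the reverse of its sign in CPM. The sum itself separated the genotypes, however, and every member had a log2 difference below 0 on this scale, from -0.16 for Tfrc to -3.04 for Slc40a1. A sign below 0 there is therefore not particular to Tfrc or Slc11a2. The part of dividing cells in the differences of Tfrc and Slc11a2 was not tested.

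Trf (ENSMUSG00000032554, chr9:103204001-103230444), which encodes the iron carrier transferrin, measured 170, 249 and 64.9 CPM in WT and 114, 139 and 146 CPM in Nfkb2-/- BMDCs. All 3 Nfkb2-/- values lay within the WT range, and the log2 fold change was -0.28 (SE 0.43, adjusted p = 0.776 from edgeR). Slc11a1 (ENSMUSG00000026177, chr1:74375195-74386062), the metal transporter of phagosomes, measured 13.3, 9.69 and 1.72 CPM in WT and 9.39, 5.77 and 5.61 CPM in Nfkb2-/- BMDCs. Here too the Nfkb2-/- values fell inside the WT range, and the log2 fold change was -0.26 (SE 0.63, adjusted p = 0.869 from edgeR).

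Of the storage genes, Ncoa4 (ENSMUSG00000056234, chr14:32159865-32179855), the ferritin autophagy receptor, measured 175, 139 and 193 CPM in WT and 71.6, 112 and 104 CPM in Nfkb2-/- BMDCs. Every WT library was higher than every Nfkb2-/- library, and WT replicate 3, lowest for most members, was the highest here. The log2 fold change was -0.82 (SE 0.22, adjusted p = 0.123 from edgeR, unadjusted p = 0.0063), and DESeq2 gave an adjusted p of 0.0164. It stayed between -0.97 and -0.65 over the 14 alternatives.

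The ferritin chains were the most abundant members. Fth1 (ENSMUSG00000024661, chr19:9980598-9985098), the heavy chain that oxidizes iron for storage, measured 1301, 1111 and 630 CPM in WT and 898, 893 and 912 CPM in Nfkb2-/- BMDCs. The Nfkb2-/- values were nearly equal and lay within the WT range, and the log2 fold change was -0.17 (SE 0.27, adjusted p = 0.785 from edgeR). Ftl1 (ENSMUSG00000050708, chr7:45457944-45459884), the light chain, measured 258, 290 and 174 CPM in WT and 118, 214 and 209 CPM in Nfkb2-/- BMDCs. Nfkb2-/- replicate 1 was the lowest of the 6, the others overlapped, and the log2 fold change was -0.42 (SE 0.29, adjusted p = 0.509 from edgeR). Ferritin has processed copies in the genome whose reads the counting could have split. The largest of them, Ftl1-ps1, held 2.01% to 5.64% of the counts on itself and Ftl1 together, and Fth-ps2 held 0.14% to 0.29% of those on itself and Fth1.

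Ratios of counts within a library do not depend on the scaling between libraries. The ratio of Tfrc to the sum of Fth1 and Ftl1, mRNA of the uptake receptor against mRNA of the storage chains, was 0.0952, 0.138 and 0.0266 in WT and 0.177, 0.256 and 0.285 in Nfkb2-/- BMDCs. Protein was not measured in these libraries. All 3 Nfkb2-/- libraries exceeded all 3 WT libraries. On the log2 scale the mean was -3.83 ± 1.25 (SD, n = 3) in WT and -2.09 ± 0.36 (SD, n = 3) in Nfkb2-/- BMDCs, a 3.33-fold higher ratio (p = 0.1 in a two-sided exact permutation test, as small as 3 against 3 libraries can give). Without WT replicate 3 the log2 difference was 1.03 in place of 1.74. Within each genotype the Tfrc to ferritin ratio ran in the order of the summed proliferation markers, which also separated the genotypes. The part of dividing cells in this ratio was not tested. Heavy to light chain, Fth1 to Ftl1, stood at 5.05, 3.83 and 3.62 in WT and 7.61, 4.17 and 4.38 in Nfkb2-/- BMDCs. These overlapped, with a log2 difference of 0.33 (exact permutation test, two-sided p = 0.5) that was 0.051 without Nfkb2-/- replicate 1.

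**Figure D2:**
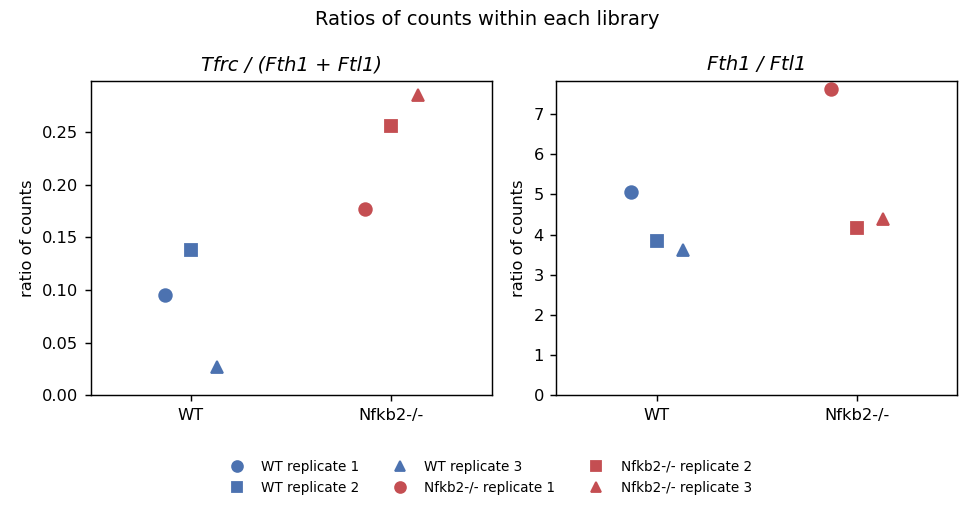
Ratio of Tfrc counts to the sum of Fth1 and Ftl1 counts (left) and of Fth1 to Ftl1 counts (right) in each WT (blue) and Nfkb2-/- (red) library, with the replicate number as the marker shape and linear axes from 0. The Tfrc to ferritin ratio was at most 0.138 in WT and at least 0.177 in Nfkb2-/- libraries, and the Fth1 to Ftl1 ratio overlapped.

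Ferroportin showed the largest difference of the members, and whether it was called depended on WT replicate 3, on the filter and on the tool. Slc40a1 (ENSMUSG00000025993, chr1:45908068-45926523) measured 64.1, 59.4 and 5.99 CPM in WT and 9.31, 11.8 and 14.0 CPM in Nfkb2-/- BMDCs. WT replicates 1 and 2 lay far above every Nfkb2-/- library, and WT replicate 3 lay below all of them. The log2 fold change was -1.88 (SE 0.74, adjusted p = 0.250 from edgeR), and DESeq2 gave an adjusted p of 0.0428. Without WT replicate 3 it was -2.40 (SE 0.20, adjusted p = 0.0172 from edgeR) and passed the test, in a fit that called 1.27% of all genes. With every library kept, edgeR without a filter on low counts also called Slc40a1 (adjusted p = 2.03e-09), in a fit that called 3.50% of all genes. Cp (ENSMUSG00000003617, chr3:19957054-20009145), the ferroxidase, was the least abundant member at 3.53, 6.77 and 1.17 CPM in WT and 4.22, 3.49 and 3.48 CPM in Nfkb2-/- BMDCs. Its values overlapped, and the log2 fold change was -0.037 (SE 0.54, adjusted p = 0.980 from edgeR). Hps3, on the opposite strand, shares exonic bases with Cp and had 1008 to 5628 counts per library beside 34 to 220 of Cp, so that the level of Cp is uncertain.

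Hmox1 (ENSMUSG00000005413, chr8:75093621-75100589), the inducible heme oxygenase, measured 83.0, 62.1 and 9.40 CPM in WT and 40.7, 49.4 and 40.9 CPM in Nfkb2-/- BMDCs. The Nfkb2-/- values were close together and lay between WT replicate 3 and the other WT replicates. The log2 fold change was -0.24 (SE 0.64, adjusted p = 0.882 from edgeR) and -0.73 without WT replicate 3 (adjusted p = 0.127).

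WT replicate 3 was the lowest of the 6 libraries for 7 of the 10 members (Trf, Tfrc, Slc11a1, Fth1, Slc40a1, Cp and Hmox1). Relative to the mean of WT replicates 1 and 2, its level was 10.3-fold lower for Slc40a1, 7.99-fold lower for Tfrc, 7.72-fold lower for Hmox1 and 6.68-fold lower for Slc11a1. Fth1 and Ftl1 were 1.92-fold and 1.57-fold lower there, whereas Slc11a2 was level and Ncoa4 was higher. Macrophage markers moved with these genes in the same library: Csf1r, the receptor for M-CSF, was at 37.2 CPM against 239 and 250, Adgre1 at 20.3 against 138 and 159, and C1qb at 22.8 against 164 and 215 CPM. Other summed markers were also lowest of WT there: proliferation (142 CPM against 214 and 512), neutrophil (107 against 273 and 436), and mast cell and basophil (10.4 against 16.6 and 11.7). The summed dendritic cell and red cell markers were highest of WT there. Between the genotypes 0 of the 12 macrophage markers passed edgeR's test, 0 had an unadjusted p under 0.05, and 0 had levels without overlap. Over all genes these were 1.14%, 3730 of 21849 and 24.7%. WT replicate 3 entered each of these comparisons. The summed markers were at 1115 and 1291 CPM in WT replicates 1 and 2, above the 743 to 961 CPM of the Nfkb2-/- libraries. Of the 12 log2 fold changes, 5 were above 0 and 7 below. The zeros therefore do not show equal macrophage content. Whether the macrophage share of the cultures accounts for the low iron genes of WT replicate 3 was not tested.

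Levels were therefore also set against the summed macrophage markers of the same library, a scale chosen after the values were seen. As a percent of that sum, Slc40a1 measured 5.75, 4.60 and 2.90 in WT and 1.25, 1.46 and 1.45 in Nfkb2-/- BMDCs. Here WT replicate 3 lay above all 3 Nfkb2-/- libraries and the genotypes did not overlap, with a 3.07-fold lower mean on the log scale in Nfkb2-/- BMDCs. Tfrc measured 13.3, 15.0 and 10.3 percent in WT and 24.3, 35.0 and 33.3 percent in Nfkb2-/- BMDCs, again without overlap and 2.39-fold higher. Hmox1 measured 7.44, 4.80 and 4.54 percent in WT and 5.48, 6.11 and 4.25 percent in Nfkb2-/- BMDCs, with a log2 difference of -0.063. On this scale 2 of the 10 members did not overlap, against 6.54% of all genes, and they were not the 2 of the CPM scale, since Slc11a2 and Ncoa4 overlapped. No test was run on these values.

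**Figure D3:**
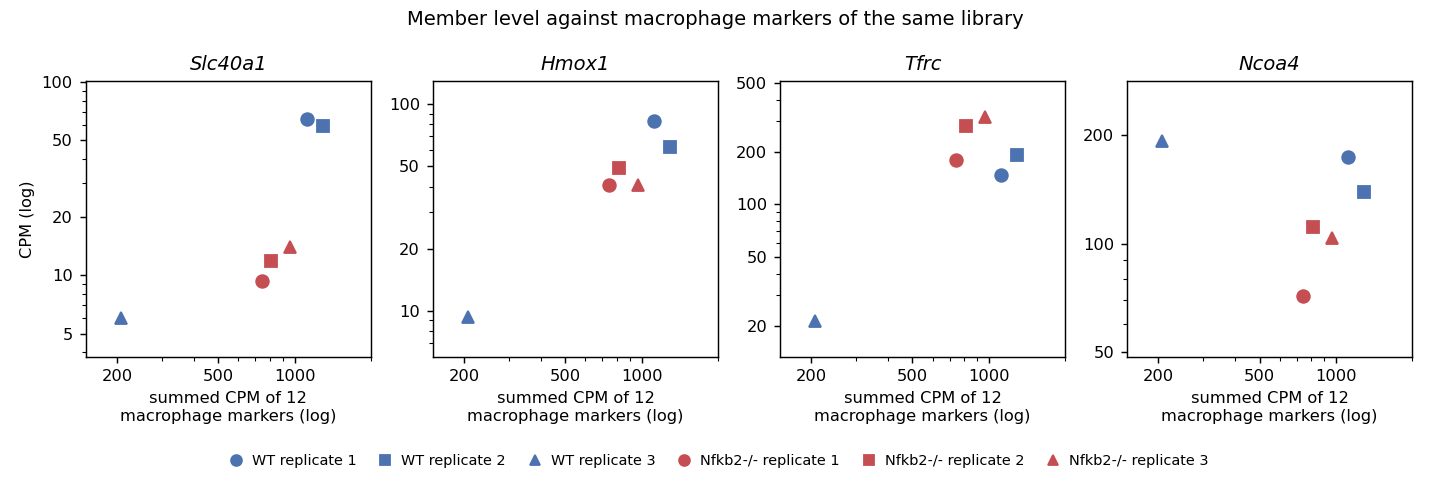
Level of Slc40a1, Hmox1, Tfrc and Ncoa4 (CPM, log axis) against the summed CPM of 12 macrophage markers (log axis) in each WT (blue) and Nfkb2-/- (red) library, with the replicate number as the marker shape. WT replicate 3, at 207 CPM of macrophage markers, was lowest for Slc40a1, Hmox1 and Tfrc and highest for Ncoa4, and the 3 Nfkb2-/- libraries lay together at 743 to 961 CPM.

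The processing altered which members were called. Fold changes of Slc40a1, Ncoa4, Ftl1, Tfrc and Slc11a2 kept their sign under all 14 alternatives. Those of Cp, Hmox1, Slc11a1, Fth1 and Trf did not. On the added scale of the proliferation markers, where every member was below 0, Tfrc and Slc11a2 changed sign.

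**Figure D4:**
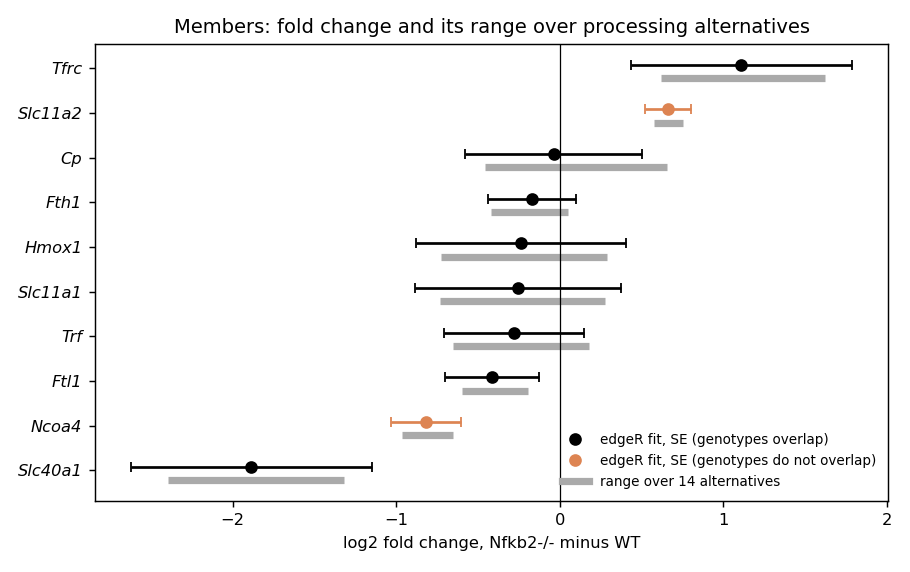
Log2 fold change (Nfkb2-/- minus WT) of each member in the edgeR fit with its SE (points; orange where the genotypes did not overlap) and its range over 14 processing alternatives (grey bars). Slc40a1 had the lowest value at -1.88 and Tfrc the highest at 1.11, and the grey bars of Cp, Hmox1, Slc11a1, Fth1 and Trf cross 0.

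Outside the members, 85 further iron and heme genes were listed from textbook roles, and 76 of them had enough counts to be tested. As among the members, 0 passed the test in edgeR, while 15 had p below 0.05 before adjustment (9 higher and 6 lower in Nfkb2-/- BMDCs). Over all genes this p was below 0.05 for 3730 of 21849, 1973 higher and 1757 lower. DESeq2 called 8 of the 76, where it called 8.60% of all genes. Of these 8, Cpox, Slc39a8, Nfu1 and Maff were higher and Aco1, Ltf, Iscu and Spic lower. limma voom called 1, Slc39a8, and 2.23% of all genes. Levels did not overlap for 20 of the 76, 13 higher and 7 lower, a share of 26.3% beside 24.7% of all genes. Their median log2 fold change was 0.12.

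In heme synthesis 6 of 11 genes (54.5%) did not overlap, 5 higher, Alas1 and Cpox among them, and 1 lower (Fech) in Nfkb2-/- BMDCs. This share and those of the following lists stand beside 24.7% of all genes, and no list was tested. Alas1, the first and rate-limiting enzyme outside red cells, measured 111, 102 and 59.1 CPM in WT and 125, 177 and 144 CPM in Nfkb2-/- BMDCs (log2 fold change 0.71, SE 0.26, adjusted p = 0.225 from edgeR). Cpox, which makes protoporphyrinogen, measured 19.9, 34.4 and 15.5 CPM in WT and 41.1, 46.6 and 55.0 CPM in Nfkb2-/- BMDCs. Fech, which inserts the iron, ran the other way at 75.7, 62.9 and 81.6 CPM in WT and 53.6, 55.2 and 55.7 CPM in Nfkb2-/- BMDCs (log2 fold change -0.42, adjusted p = 0.208 from edgeR). The summed proliferation markers were higher in Nfkb2-/- BMDCs as Alas1 and Cpox were, and all were lowest in WT replicate 3. Within each genotype, Cpox ran in the order of the summed markers and Alas1 did not. The part of dividing cells was not tested.

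In heme transport, scavenging and bilirubin formation, 1 of 12 genes (8.33%) did not overlap (Hmox2, lower). Lrp1, the receptor for the hemopexin-heme complex, measured 434, 354 and 85.1 CPM in WT and 147, 168 and 165 CPM in Nfkb2-/- BMDCs, high in WT replicates 1 and 2 as Slc40a1 was. It too passed edgeR's test without WT replicate 3 (log2 fold change -1.30, adjusted p = 0.0348). That fit called 3 of the 76 other iron and heme genes, Lrp1, Lcn2 and Ltf, all lower, beside 1.27% of all genes. The lysosomal heme transporter Slc48a1 measured 100, 90.3 and 66.9 CPM in WT and 98.9, 102 and 98.3 CPM in Nfkb2-/- BMDCs, and the heme exporter Flvcr1 had a log2 fold change of 0.0092 (SE 0.22).

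Of the iron regulatory protein system and the iron chaperones, 4 of 10 (40.0%) did not overlap, 1 higher and 3 lower. Pcbp2, a chaperone that delivers iron to ferritin, measured 398, 339 and 405 CPM in WT and 277, 306 and 315 CPM in Nfkb2-/- BMDCs (log2 fold change -0.35, SE 0.15, adjusted p = 0.300 from edgeR). Ireb2, which encodes iron regulatory protein 2, overlapped with a log2 fold change of -0.059, as did Herc2 with -0.18. Aco1, which encodes iron regulatory protein 1, measured 66.8, 61.2 and 74.2 CPM in WT and 44.9, 52.3 and 45.3 CPM in Nfkb2-/- BMDCs. It had no overlap (log2 fold change -0.50, adjusted p = 0.147 from edgeR) and was named here after its values were seen.

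Among the other transporters, reductases and oxidases, 1 of 9 tested genes (11.1%) did not overlap, Slc39a8, a metal importer at 1.28, 3.32 and 1.55 CPM in WT and 5.85, 5.97 and 6.79 CPM in Nfkb2-/- BMDCs (log2 fold change 1.60, adjusted p = 0.0959 from edgeR). Slc39a14 and the lysosomal iron channel Mcoln1 had log2 fold changes of 0.076 and -0.10. Ltf, which encodes the iron-binding lactoferrin of neutrophil granules, measured 15.2, 22.5 and 3.89 CPM in WT and 4.84, 5.37 and 3.57 CPM in Nfkb2-/- BMDCs. Neutrophil markers, a list that includes Ltf, summed to 273, 436 and 107 CPM in WT and 242 to 255 CPM in Nfkb2-/- BMDCs, so that Ltf moved with them within WT. Between the genotypes the markers differed in direction. Cxcr2 had a log2 fold change of 3.82 (adjusted p = 0.0568 from edgeR), and Ngp, Mmp8 and Retnlg, whose values like those of Ltf were lower in Nfkb2-/- BMDCs than in WT replicates 1 and 2, had log2 fold changes of -1.81, -1.35 and -2.13 without passing the test. The part of neutrophil RNA was not tested.

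Of the mitochondrial iron and iron-sulfur cluster genes, 3 of 17 (17.6%) did not overlap, 2 higher and 1 lower. The scaffold gene Iscu measured 171, 123 and 217 CPM in WT and 110, 106 and 96.0 CPM in Nfkb2-/- BMDCs (log2 fold change -0.71, SE 0.22, adjusted p = 0.166 from edgeR). The membrane protein Cisd2 overlapped, with a log2 fold change of 0.20. In the hepcidin axis 1 of 7 tested genes (14.3%) did not overlap, Hfe, which binds the transferrin receptor, at 24.8, 30.1 and 6.57 CPM in WT and 37.0, 39.9 and 33.3 CPM in Nfkb2-/- BMDCs. Neo1 and Erfe lay under 3 CPM in every library, and Hamp, the hepcidin gene itself, had too few counts to be tested. The median log2 fold change of 1.46 in this list came from genes near 0 CPM that were highest in Nfkb2-/- replicate 1.

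Transcription factors of heme and iron genes had 4 of 10 (40.0%) without overlap, 3 higher (Keap1, Mafk and Maff) and 1 lower (Spic). Hif1a measured 234, 292 and 217 CPM in WT and 259, 415 and 407 CPM in Nfkb2-/- BMDCs (log2 fold change 0.54, SE 0.23, adjusted p = 0.285 from edgeR). Nfe2l2, the activator of Hmox1 and the ferritin genes, had a log2 fold change of 0.51 and Bach1, the heme-sensing repressor of the same genes, one of -0.27, and both overlapped. Spic, the factor that red pulp macrophages need, measured 9.01, 3.69 and 12.7 CPM in WT and 2.81, 1.88 and 2.45 CPM in Nfkb2-/- BMDCs, with its highest value in WT replicate 3, where Slc40a1 and Hmox1 were lowest.

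**Figure D5:**
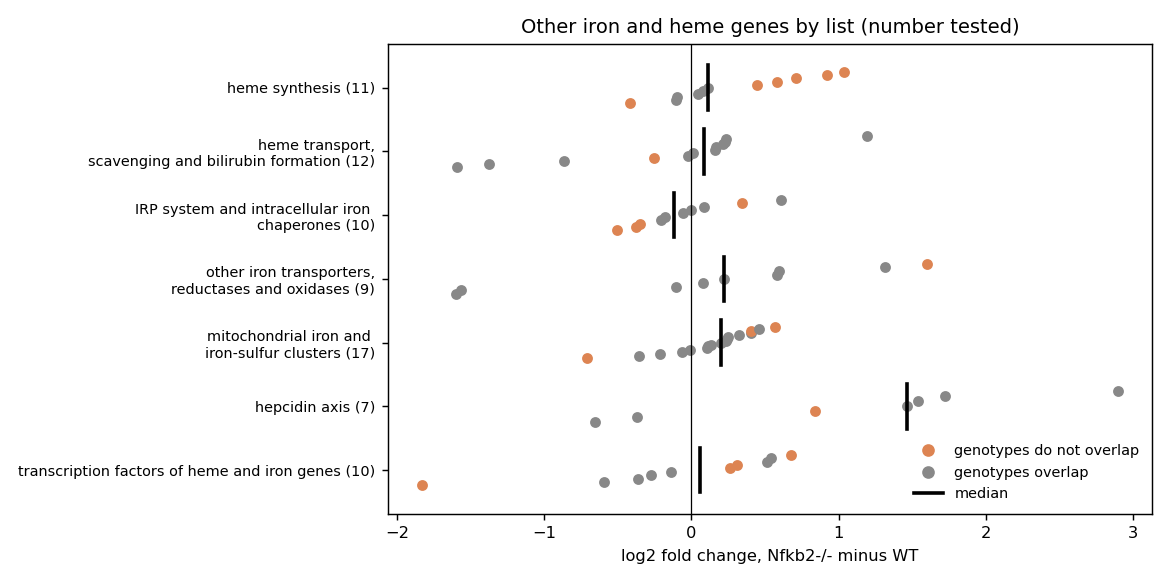
Log2 fold change (Nfkb2-/- minus WT) of the tested genes of 7 further iron and heme lists, 1 point per gene, with orange for genes whose genotypes did not overlap and a black bar at the list median. Heme synthesis held 6 such genes among 11, and the high median of the hepcidin axis came from genes with very few counts.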

How the data were processed

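Libraries of polyadenylated RNA from 3 WT and 3 Nfkb2-/- BMDC cultures were grouped by their titles. The authors deposited raw counts per Ensembl gene and library, without normalization. Per the submitters' processing notes, HISAT2 and the build GRCm38/mm10 were used. The counting tool, annotation release and use of strand are not given in the sources used here, so counts of overlapping genes remain uncertain. The joined table holds the same counts and was not used.

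Names (52073 IDs), positions and exons came from GENCODE M21, and IDs without a name (1.01% to 1.75% of a library's counts) were left out. Genes whose counts summed to 50 or more were tested with edgeR 4.0.16 (R 4.3.3; TMM, glmQLFit, glmQLFTest, no covariates) and Benjamini-Hochberg adjustment over 21849 genes. SE is the size of the log2 fold change divided by the square root of F. CPM per kb used the longest APPRIS principal transcript. DESeq2 1.42.0, limma 3.58.1 (voom), other scalings and filters, the replicate block and each library left out in turn were alternatives. Exact permutation tests used SciPy 1.17.1. edgeR, DESeq2 and limma voom were tested on simulated counts, in which DESeq2 called a larger share of unchanged genes among its calls than the others did. In Cp, the gene of lowest level, 34 counts was the smallest value of a library, and 3 counts corresponded to 0.0561 to 0.103 CPM.

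The members and lists were chosen with earlier results of these data known. Genes named are the 10 members, the 3 most abundant of each other list, except for items not reported here, and Nfkb2. Other genes of those lists that are named, and the markers Csf1r, Adgre1, C1qb, Itgax, Ccr7, Cd209a, Hbb-bt, Cxcr2, Ngp, Mmp8, Retnlg, Mcm3 and Plk1, were picked after their values were seen.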

Additional observations from a re-analysis of the deposited data

How the results depend on the processing

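Of 140 recomputed fold changes of the members, 121 kept their sign and their side of the threshold, 13 changed sign and 6 became differentially expressed. The count over all genes, 248, was 1878 with DESeq2, 488 with limma voom, 397 with filterByExpr, 1625 without a filter beyond 1 count and 459 with at least 10 counts in every library, and it ran from 0 to 1248 with a library left out. The members called were 3 with DESeq2 and 2 without a filter (Tfrc and Slc40a1), beside 8.60% and 3.50% of all genes. With a library left out 0 to 1 was called (Slc40a1, without WT replicate 3, beside 1.27% of all genes). Of the other iron and heme genes, 8 of 76 were called with DESeq2 and 1 of 76 with limma voom, beside 8.60% and 2.23% of all genes. Without a filter 7 of 85 were called, beside 3.50% of all genes. With a library left out 0 to 4 were called, the most without WT replicate 2, beside 5.87% of all genes. With limma voom the log2 fold changes of Hmox1, Slc11a1 and Cp were 0.23, 0.037 and 0.23, and with total counts that of Cp was 0.012. With a library left out they ran from -0.73 to 0.29 for Hmox1, -0.73 to 0.28 for Slc11a1, -0.46 to 0.65 for Cp, -0.65 to 0.18 for Trf and -0.42 to 0.051 for Fth1. Relative to the summed proliferation markers, a scale chosen after seeing the data, the log2 differences of Tfrc and Slc11a2 were -0.16 and -1.08. Every other member was below 0 on that scale too. The causes were not tested. Annotated transcript lengths limit the comparison of levels between genes, and the spread among 3 libraries per genotype limits the tests.

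The replicate numbers were not shown to pair the libraries, since same-numbered deviations from the genotype means correlated at 0.26, 0.15 and 0.02. With the replicate block 0 genes of all, 0 members and 0 other iron genes were called, 3331 genes had an unadjusted p-value under 0.05, and the log2 fold changes of Hmox1, Slc11a1 and Cp were 0.19, 0.087 and 0.26. The ratio of Tfrc to ferritin kept its log2 difference of 1.74 within replicate numbers (exact permutation test, p = 0.25, the smallest that 3 pairs allow).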
